A study of Homo sapiens with 4 samples.

Results

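The NRF2 pathway and its glutathione genes were described through 9 genes, taken as the rows whose symbol was NFE2L2, KEAP1, BACH1, NQO1, GCLC, GCLM, TXNRD1, SRXN1 or SLC7A11. All 9 were found among the 13092 genes listed in at least 1 of the RNA tables, and all 9 had a mean of at least 1 RPKM (reads per kilobase of transcript after scaling by the assigned reads of each library). HMOX1, the inducible heme oxygenase, served as an outside reference. The study overexpressed HADH-S, described in the series title as a nuclear isoform of the mitochondrial enzyme HADH, in RKO, an established human colon carcinoma cell line. RNA came from 1 library of RKO cells labelled HADH-S overexpression and 1 library of control RKO cells labelled WT. The labels do not say which vector was used, whether the cells were 1 clone, or how long overexpression lasted. With 1 library per condition there was no test between conditions, and every difference below describes these 2 libraries.

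NRF2, encoded by NFE2L2, is a basic leucine zipper transcription factor that pairs with small MAF proteins at antioxidant response elements. KEAP1 holds NRF2 in the cytoplasm and presents it to a CUL3 ubiquitin ligase for degradation until electrophiles or oxidants modify KEAP1 cysteines, so the pathway is controlled largely through NRF2 protein and its messenger RNA is a poor guide to its activity. BACH1 occupies the same elements as a repressor and leaves them when heme binds it, and HMOX1 is its best known target. The pathway's outputs include cystine import, glutathione synthesis and the thioredoxin system, and in colon epithelium it is known for protection against oxidants and dietary electrophiles.

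The element itself was looked up in the promoters, because NRF2 acts through it. The 9 genes were chosen by symbol and not by the element. Windows of 300 bases, from 250 before to 50 after an annotated start, were taken from RefSeq on GRCh38.p14, and 8 of the 9 genes matched, with 13 windows between them. SLC7A11 and HMOX1 were not matched. The core TGACNNNGC was searched on both strands. It was found in windows of KEAP1, GCLM and TXNRD1, 3 of the 8 genes. At least 1 window held it for 16.1% of all 27305 genes with a window. For the 8423 such genes with a mean of at least 1 RPKM, the share was 19.4%. Genes differ in their number of windows, which affects these shares. By window, 4 of the 13 held it, against 13.3% of all 35116 windows and 14.5% of the 12200 windows of genes at that level. Counts of 3 in 8 and 4 in 13 are small and are no result about the pathway. Both KEAP1 matches and the third TXNRD1 match come from windows at annotated starts inside the bounds of the gene. The core can overlap an AP-1 site, TGACTCA, and 0 of the 6 matches below held one. The matches are shown 5′ to 3′ in the orientation of the core, with the core in capitals and 10 bases of context on each side. They lie at chr19:10502807-10502835 and chr19:10502784-10502812 for KEAP1, at chr1:93909446-93909474 for GCLM, and at chr12:104215670-104215698, chr12:104215761-104215789 and chr12:104286920-104286948 for TXNRD1. The core read on the gene's own strand in the first KEAP1 site and the first TXNRD1 site and on the opposite strand in the other 4.
KEAP1 site 1: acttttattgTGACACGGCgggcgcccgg
KEAP1 site 2: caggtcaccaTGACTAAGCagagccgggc
GCLM: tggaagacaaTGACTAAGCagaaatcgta
TXNRD1 site 1: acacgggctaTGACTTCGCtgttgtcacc
TXNRD1 site 2: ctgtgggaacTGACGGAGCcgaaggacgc
TXNRD1 site 3: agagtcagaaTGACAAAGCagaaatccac
The second KEAP1 site and the GCLM site share the same 9 letters of the core. A match is a description of these letters, and windows without one say nothing of elements farther from the start.

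The HADH-S library held 6963608 reads assigned to genes and the control library 6773421. HADH measured 54.4 RPKM in overexpressing cells against 26.5 RPKM in control cells, the direction of the labels. Of 12 colon epithelial markers, 5 had a mean of at least 1 RPKM, among them EPCAM, KRT8, KRT18 and CDX2. The other 7, CDH1, KRT19, KRT20, CDX1, VIL1, CDH17 and LGALS4, were listed in neither table. Of the fibroblast markers 0 of 6 reached that level, with levels summing to 0.0751 RPKM in overexpressing and 0.0553 RPKM in control cells, and none of the 5 endothelial and 6 leukocyte markers was listed.

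The levels of all 9 pathway genes were close in the 2 libraries, while HMOX1 was not. Their ratios of RPKM with HADH-S to RPKM in the control ran from 0.917 for BACH1 to 1.21 for SRXN1, against 2.40 for HMOX1. Genes were classed as higher or lower where log2((RPKM + 1) with HADH-S / (RPKM + 1) in control cells) passed a fold, which is a rule of size and understates the change of low genes. At 2-fold, 0 of the 9 were higher, as were 0.300% of the 10331 genes with a mean of at least 1 RPKM, and 0 were lower, as were 0.0484% of all genes. At 1.2-fold, 0 of the 9 were higher against 11.5% of all genes, and 0 were lower against 6.76%. A log2 value above 0 was found for 7 of the 9 and for 52.2% of all genes. The fold shares of all genes are not matched for reads. Counts of 0 in 9 are near them and are no result about the pathway. The median log2 value of the 9 was 0.07, beside 0.01 over all genes, and all 9 lay between the 2.5th and 97.5th percentiles of all genes, at -0.36 and 0.49. Among the 6044 genes in the range of reads of the 9, those percentiles were -0.29 and 0.35, and all 9 lay between them too.

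**Figure D1:**
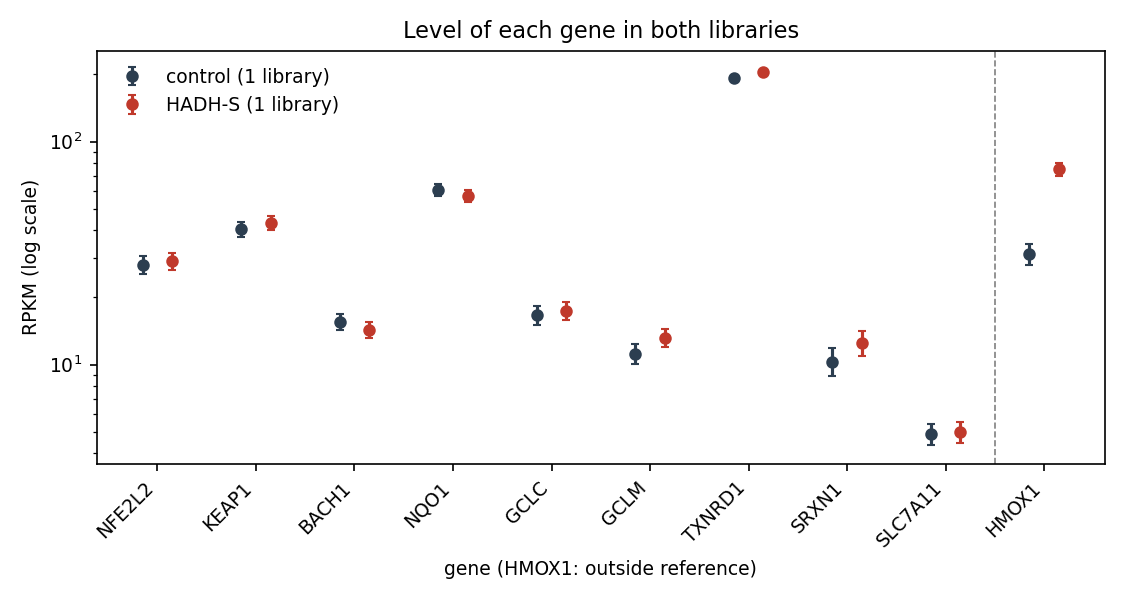
RPKM (log axis) of the 9 pathway genes and HMOX1 in the control library and the HADH-S library, with 95% Poisson intervals from the recovered reads that cover counting error only. The paired points lie close together for the 9 genes, and HMOX1 stands at 31.3 RPKM in the control and 74.9 RPKM with HADH-S.

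Counting intervals give the precision that the reads allow. They are exact conditional 95% intervals of the ratio, cover counting error only, and treat reads as independent molecules, which reads without molecular identifiers are not. The interval lay above 1 for 2 of the 9 genes, GCLM and TXNRD1, against 13.8% of all genes, and below 1 for 0 of the 9, against 11.6% of all genes. Among the 6044 genes with as many reads as the 9 genes had (422 to 10514 over both libraries), 15.3% had an interval above 1 and 15.3% one below 1. A count of 2 in 9 is near these shares and is no result about the pathway.

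The first group holds the regulators. NFE2L2 was at 29.0 RPKM with HADH-S (494 reads) and 27.9 RPKM in the control (463 reads), a ratio of 1.04 (interval 0.912 to 1.18). KEAP1, the adaptor that marks NRF2 for degradation, was at 43.1 RPKM with HADH-S (795 reads) and 40.4 RPKM in the control (724 reads), a ratio of 1.07 (interval 0.965 to 1.18). BACH1, the heme-sensing repressor, was at 14.3 RPKM with HADH-S (573 reads) and 15.6 RPKM in the control (608 reads), a ratio of 0.917 (interval 0.816 to 1.03). BACH1 was thus slightly low with HADH-S and the other two slightly high, each by less than counting error resolves.

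Ratios between these regulators within a library are compared per length of the listed transcript. NFE2L2 stood at 0.673 of the RPKM of KEAP1 with HADH-S (interval 0.600 to 0.754) and at 0.692 in the control (interval 0.615 to 0.779). The change of that ratio between the libraries was 0.972 (interval 0.824 to 1.15). NFE2L2 stood at 2.03 times the RPKM of BACH1 with HADH-S and at 1.80 times in the control, a change of 1.13 (interval 0.951 to 1.35). Both intervals of change include 1, so a shift in the balance of activator to repressor messenger RNA was not resolved by the reads. The spread between cultures was not measured.

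Glutathione synthesis starts with cystine import and the joining of cysteine to glutamate. SLC7A11, the cystine/glutamate exchanger known as xCT, was the lowest of the 9 at 4.97 RPKM with HADH-S (334 reads) and 4.88 RPKM in the control (319 reads), a ratio of 1.02 (interval 0.871 to 1.19). GCLC, the catalytic subunit of glutamate-cysteine ligase, was at 17.5 RPKM with HADH-S (460 reads) and 16.6 RPKM in the control (426 reads), a ratio of 1.05 (interval 0.919 to 1.201). GCLM, the modifier subunit that raises the activity of GCLC, was at 13.1 RPKM with HADH-S (447 reads) and 11.2 RPKM in the control (370 reads), a ratio of 1.18 (interval 1.02 to 1.35). Of these 3 genes GCLM alone had an interval above 1. Its log2 value of 0.22 ranked 1600th of 10331 genes from the highest.

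GCLC was above GCLM per length in both libraries, and a change in their ratio was not resolved by the reads. GCLC stood at 1.33 times the RPKM of GCLM with HADH-S (interval 1.16 to 1.52) and at 1.49 times in the control (interval 1.29 to 1.71). That ratio changed by a factor of 0.894 (interval 0.735 to 1.09) from the control to HADH-S.

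Among the detoxifying and thiol-reducing enzymes, TXNRD1, the selenoprotein that reduces cytosolic thioredoxin, was the most abundant of the 9. It was at 205 RPKM with HADH-S (5501 reads) and 192 RPKM in the control (5013 reads), a ratio of 1.07 (interval 1.03 to 1.11). TXNRD1 had the most reads of the 9, and its log2 value of 0.09 ranked 3416th of 10331, close to that of KEAP1 (0.09, ranked 3433rd), whose interval included 1. NQO1, the quinone reductase often used as a readout of NRF2 activity, was at 57.1 RPKM with HADH-S (1003 reads) and 60.7 RPKM in the control (1037 reads), a ratio of 0.941 (interval 0.862 to 1.03). SRXN1, the sulfiredoxin that repairs over-oxidised peroxiredoxins, was at 12.5 RPKM with HADH-S (234 reads) and 10.3 RPKM in the control (188 reads), a ratio of 1.21 (interval 0.995 to 1.47). SRXN1 had the highest ratio of the 9 and the fewest reads, its log2 value of 0.25 ranked 1268th of 10331, and it passed 1.2-fold with a pseudocount of 0.1 or 0.5.

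**Figure D2:**
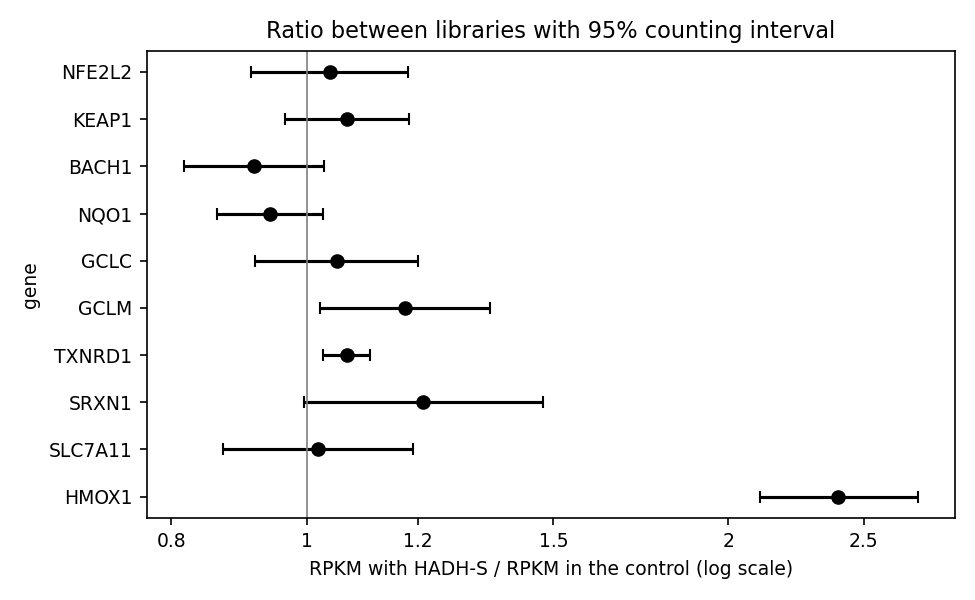
Ratio of RPKM with HADH-S to RPKM in the control (log axis) for each gene, with its exact 95% counting interval as a bar and the grey line at a ratio of 1. The bars of the 9 pathway genes end at or below 1.47, the upper bound of SRXN1, and that of HMOX1 starts at 2.11.

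The order of the 9 levels was the same in both libraries. From the highest RPKM to the lowest it ran TXNRD1, NQO1, KEAP1, NFE2L2, GCLC, BACH1, GCLM, SRXN1 and SLC7A11. Neighbours that did not differ beyond counting error were BACH1 and GCLM (ratio 1.09, interval 0.957 to 1.23) and GCLM and SRXN1 (ratio 1.06, interval 0.899 to 1.24) with HADH-S. In the control they were GCLC and BACH1 (ratio 1.07, interval 0.941 to 1.21) and GCLM and SRXN1 (ratio 1.09, interval 0.910 to 1.30). Levels per length depend on the transcript that the authors listed, which for SLC7A11 is 9645 nt long. SLC7A11 had more reads than SRXN1 (653 against 422 over both libraries), whose listed transcript is 2698 nt long.

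HMOX1 was at 74.9 RPKM with HADH-S (811 reads) and 31.3 RPKM in the control (329 reads). Its ratio of 2.40 (interval 2.11 to 2.73) and log2 value of 1.24 placed it 12th of 10331 genes from the highest. The ratio of HMOX1 was compared with that of each pathway gene by the exact conditional odds ratio of the reads. It exceeded the ratio of BACH1 by a factor of 2.61 (interval 2.20 to 3.12), that of NQO1 by 2.55 (interval 2.18 to 2.99) and that of SLC7A11 by 2.35 (interval 1.92 to 2.89). It exceeded those of NFE2L2 by 2.31, GCLC by 2.28, TXNRD1 by 2.25 and KEAP1 by 2.24. The smallest factors were 2.04 for GCLM (interval 1.68 to 2.47) and 1.98 for SRXN1 (interval 1.56 to 2.51). All 9 intervals lay above 1, which covers counting error only, and the spread between cultures could not be measured. The 9 comparisons share the same HMOX1 reads and are not independent. HMOX1 was named as the reference with its difference known. Their outcome was therefore largely fixed in advance and is no separate result for each gene.

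**Figure D3:**
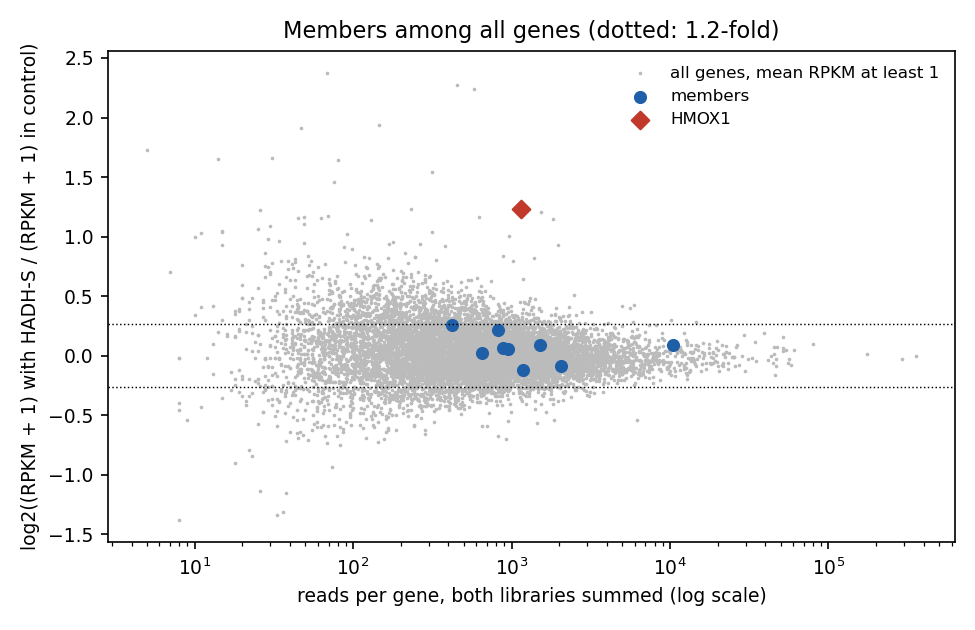
Log2((RPKM + 1) with HADH-S / (RPKM + 1) in control cells) against the reads of each gene summed over both libraries (log axis), for all 10331 genes with a mean of at least 1 RPKM (grey), the 9 pathway genes (blue) and HMOX1 (red diamond), with dotted lines at 1.2-fold. The 9 genes lie inside the dotted lines, SRXN1 nearest the upper one, and HMOX1 lies above at 1.24.

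Further genes of the pathway were taken from 5 lists, chosen with earlier results of these data known. Of the genes on them, 5 stand on more than 1 list, so the counts of the lists are not all of separate genes. The shares of all genes set beside them are not matched for reads. Of the 20 regulators and partners of NRF2, 18 had a mean of at least 1 RPKM, and BACH2 and NFE2 were not listed in either table. Log2 values were above 0 for 13, against 52.2% of all genes, and below 0 for 5, with a median of 0.08. The counting interval lay above 1 for 2 (11.1%, against 13.8% of all genes) and below 1 for 1 (5.56%, against 11.6%). Past 1.2-fold, 1 was higher (5.56%, against 11.5%) and 0 were lower (against 6.76%). The kinase gene GSK3B, which primes NRF2 for degradation independently of KEAP1, measured 17.2 RPKM with HADH-S and 13.6 RPKM in control cells (ratio 1.26, interval 1.04 to 1.54). SQSTM1, the autophagy receptor p62 that sequesters KEAP1, had 158 against 137 RPKM (ratio 1.15, interval 1.09 to 1.21). The small MAF gene MAFK had 10.4 against 8.95 RPKM (ratio 1.16, interval 0.962 to 1.41).

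On the lower side of that list, CUL3, the scaffold of the KEAP1 ligase, measured 16.8 RPKM with HADH-S and 18.7 RPKM in control cells (ratio 0.898, interval 0.814 to 0.990). PALB2, a BRCA2 partner that binds KEAP1, had 11.5 against 12.8 RPKM (ratio 0.900, interval 0.771 to 1.05), and the acetyltransferase gene EP300 at 2.80 against 3.01 RPKM (ratio 0.929, interval 0.749 to 1.15). GSK3B was the gene past 1.2-fold, and GSK3B, SQSTM1 and CUL3 were the 3 with an interval excluding 1.

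Of 31 other genes known as NRF2 targets, 20 had a mean of at least 1 RPKM. A further 3 (AKR1C1, ABCC2 and CES1) were below that level, and 8 (AKR1B1, AKR1B10, AKR1C2, AKR1C3, ME1, ABCC3, ALDH3A1 and UGT1A6) were listed in neither table and not evaluated. Log2 values were above 0 for 16 of the 20, against 52.2% of all genes, with a median of 0.10 beside 0.01 over all genes. The interval lay above 1 for 7 (35.0%, against 13.8% of all genes) and below 1 for 0 (against 11.6%). Past 1.2-fold, 6 were higher (30.0%, against 11.5%) and 0 were lower (against 6.76%). None reached 2-fold. Among the 7 were TRIM16L, EPHX1, FTH1, ABCC1, FTL and TKT. With the libraries rescaled by any of 3 measures the count was 6. TKT entered with an interval that starts at 1.002. The list was chosen with earlier results of these data known and was not matched for reads. Its shares are therefore no result about NRF2 targets.

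TRIM16L, a tripartite motif gene with a close paralog in TRIM16 that makes its reads uncertain, measured 9.35 RPKM with HADH-S and 6.18 RPKM in control cells (ratio 1.51, interval 1.14 to 2.02). EPHX1, the microsomal epoxide hydrolase, had 7.55 against 5.12 RPKM (ratio 1.47, interval 1.06 to 2.07), from 94 and 62 reads. PIR, the pirin gene, had 4.29 against 3.17 RPKM (ratio 1.36, interval 0.848 to 2.19), from 46 and 33 reads. The largest ratios on the list thus came from genes with fewer reads than any of the 9. The remaining genes with an interval above 1, chosen after their values were seen, include the ferritin chains that store iron, FTH1 (ratio 1.27, interval 1.17 to 1.37) and FTL (ratio 1.14, interval 1.12 to 1.17), whose many processed pseudogenes make their reads uncertain. They also include the glutathione conjugate exporter ABCC1 (ratio 1.19, interval 1.02 to 1.38). The lowest were the porphyrin transporter gene ABCB6 (5.40 against 5.90 RPKM, ratio 0.915, interval 0.701 to 1.195), UGDH (19.4 against 19.9 RPKM, ratio 0.977) and TALDO1 (242 against 247 RPKM, ratio 0.980), each with an interval that included 1.

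**Figure D4:**
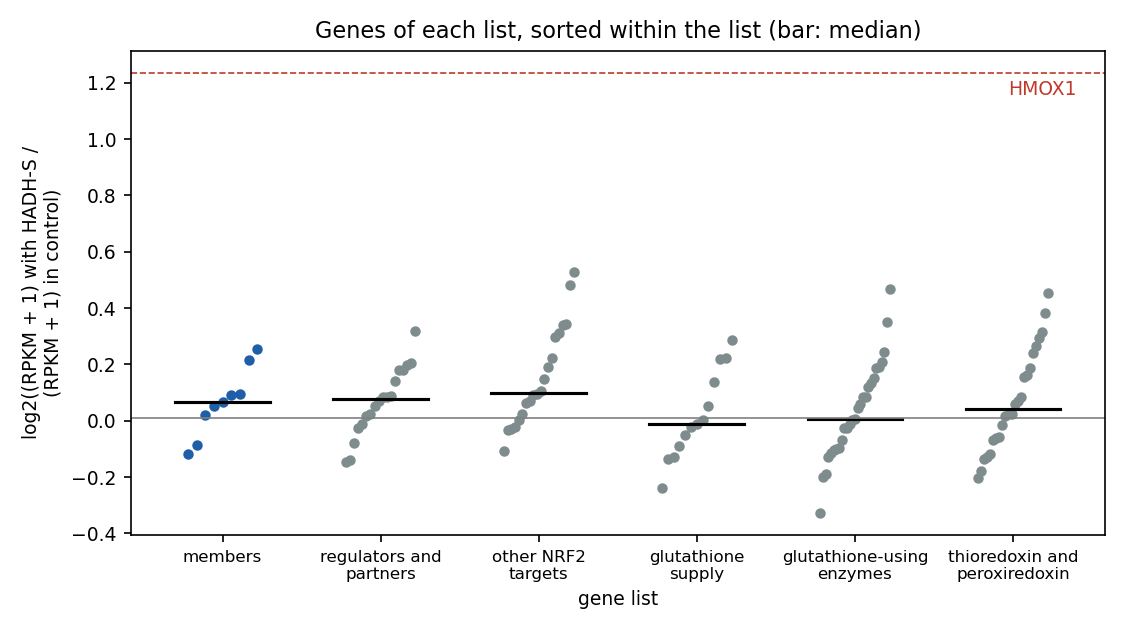
Log2((RPKM + 1) with HADH-S / (RPKM + 1) in control cells) of each gene with a mean of at least 1 RPKM, by gene list and sorted within it, with black bars at the list medians, a grey line at the median of all genes (0.01) and a dashed line at HMOX1 (1.24). The medians run from -0.01 for glutathione supply to 0.10 for the other NRF2 targets, and no listed gene reaches HMOX1.

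Genes that supply, move or break down glutathione had 13 of 20 members with a mean of at least 1 RPKM. Of these genes 6 had a log2 value above 0, against 52.2% of all genes, and 7 had one below. Their median was -0.01 and their mean 0.02, and the median was 0.00 at a mean of at least 5 RPKM. The interval lay above 1 for 4 (30.8%, against 13.8% of all genes) and below 1 for 0 (against 11.6%). Past 1.2-fold, 1 was higher (7.69%, against 11.5%) and 0 were lower (against 6.76%). SLC25A39, the mitochondrial glutathione importer, measured 118 RPKM with HADH-S and 96.4 RPKM in control cells (ratio 1.22, interval 1.13 to 1.33). OPLAH, which opens the 5-oxoproline ring, had 29.4 against 25.2 RPKM (ratio 1.17, interval 1.06 to 1.30), and ABCC1, also on the target list, at 8.88 against 7.47 RPKM. GSS, the second enzyme of glutathione synthesis, was chosen after its values were seen and stood at 48.0 RPKM in both libraries (ratio 1.00, interval 0.912 to 1.1002). SLC3A2, the heavy chain that partners SLC7A11 and likewise chosen afterwards, had 67.1 against 68.2 RPKM (ratio 0.984, interval 0.902 to 1.07).

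The lowest genes of glutathione supply all had intervals that included 1. They were the neutral amino acid transporter gene SLC1A4 (4.34 against 5.31 RPKM, ratio 0.818, interval 0.648 to 1.03), GGCT (31.7 against 34.9 RPKM, ratio 0.909) and the cystathionine lyase gene CTH (1.79 against 2.05 RPKM, ratio 0.872, from 26 and 29 reads).

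Enzymes that use glutathione had 27 of 33 members measured, 15 above 0 (against 52.2% of all genes) and 12 below. Their median was 0.01 and was below 0 under each of the 3 rescalings. The interval lay above 1 for 5 (18.5%, against 13.8% of all genes) and below 1 for 2 (7.41%, against 11.6%). Past 1.2-fold, 2 were higher (7.41%, against 11.5%) and 1 was lower (3.70%, against 6.76%). GSTM1, a glutathione transferase whose near-identical relatives make its reads uncertain, measured 31.0 RPKM with HADH-S and 24.1 RPKM in control cells (ratio 1.29, interval 1.03 to 1.62). GSTT2B was at 2.61 against 1.61 RPKM, from 20 and 12 reads (ratio 1.62, interval 0.755 to 3.64), and the secreted peroxidase gene GPX3 at 11.2 against 9.30 RPKM (ratio 1.204, interval 0.919 to 1.58). MGST2, a microsomal transferase, had 16.7 against 21.3 RPKM (ratio 0.788, interval 0.630 to 0.983). GSTM2 (0.913 against 1.19 RPKM, from 11 and 14 reads) and ESD (51.4 against 58.7 RPKM, ratio 0.875, interval 0.762 to 1.00) followed.

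Thioredoxin, peroxiredoxin and other antioxidant enzymes had 24 of 26 members measured, 15 above 0 (against 52.2% of all genes) and 9 below. Their median was 0.04. The interval lay above 1 for 4 (16.7%, against 13.8% of all genes) and below 1 for 4 (16.7%, against 11.6%). Past 1.2-fold, 5 were higher (20.8%, against 11.5%) and 0 were lower (against 6.76%). TXNRD2, the mitochondrial counterpart of TXNRD1, measured 10.6 RPKM with HADH-S and 7.45 RPKM in control cells, from 143 and 98 reads (ratio 1.42, interval 1.09 to 1.85). MSRB2, a methionine sulfoxide reductase, had 4.98 against 3.58 RPKM (ratio 1.39, interval 0.921 to 2.11), and CCS, the copper chaperone of superoxide dismutase, at 14.5 against 11.5 RPKM (ratio 1.27, interval 0.942 to 1.71). TMX1, a transmembrane thioredoxin of the endoplasmic reticulum, had 52.5 against 60.5 RPKM (ratio 0.867, interval 0.808 to 0.931). The mitochondrial superoxide dismutase gene SOD2 had 8.80 against 10.1 RPKM (ratio 0.873, interval 0.796 to 0.958), read from the better covered of its 2 rows, and the peroxiredoxin gene PRDX6 at 218 against 240 RPKM (ratio 0.909, interval 0.861 to 0.960). These enzymes thus included genes with intervals on both sides of 1, at ratios within 1.5-fold.

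The genomic positions of the 9 genes on GRCh38.p14 are NFE2L2 at chr2:177230303-177264727, KEAP1 at chr19:10486125-10503356, BACH1 at chr21:29298922-29361894, NQO1 at chr16:69709401-69726560 and GCLC at chr6:53497341-53545101. GCLM lies at chr1:93885199-93909430, TXNRD1 at chr12:104215779-104350307, SRXN1 at chr20:646615-653200 and SLC7A11 at chr4:138164097-138242349. RefSeq places the coding gene EID3 within the bounds of TXNRD1 and the pseudogene RPL18AP3 within or across them. It places other non-coding genes within or across those of NFE2L2 (the microRNA gene MIR3128), NQO1, GCLC, TXNRD1, SRXN1 and SLC7A11. Whether counting used strand is not stated in the labels or headers, so reads of such overlapping genes cannot be told apart. The reads of each gene were assigned to 1 listed transcript and do not separate isoforms. With 2 libraries, the pattern of a gene is a single difference, so no genes were named as most like the 9.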

How the data were processed

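Each RNA library came as a table of RPKM values that the authors deposited, per the file headers; row labels give the symbol, Ensembl identifiers and transcript length. The submitters' processing notes, shared by all 4 samples, name fastp 0.23.2, SAMtools 1.9, MACS2 1.4.2, ChIPseeker and GRCh38. No label or header names the RNA aligner, counter, strand setting or annotation version (not given in the sources used here). The HADH-S chromatin immunoprecipitation library and its input were not analysed here.

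RPKM times transcript length was a whole multiple of 1 step in 100% of values (tolerance 0.01 reads), which gave the reads. A gene listed in 1 table counted as 0 reads in the other. Ratios carry exact conditional (Clopper-Pearson) 95% intervals, computed with scipy 1.17.1, and log2 values use a pseudocount of 1 and a minimum mean of 1 RPKM. The intervals and fold classes were run on simulated Poisson reads. That is the counting model the intervals assume, so the run does not cover spread between cultures or reads that are not independent.

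The members and lists were chosen with earlier results of these data known. Named genes were the 9 members, HMOX1, HADH, and in each list up to 3 genes with the largest increase and 3 with the largest decrease. Some genes counted on the lists are not reported here by name. Alternatives were pseudocounts of 0.1, 0.5 and 5, 3 rescalings, other folds and filters, a 99% interval and removal of a length trend.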

Additional observations from a re-analysis of the deposited data

How the results depend on the processing

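No paired analysis was possible because each condition had 1 library, and leaving out a replicate was not possible either. All 63 recomputed log2 values of the 9 genes, under 7 alternatives, kept their sign and stayed within their counting intervals. A changed pseudocount cannot change a sign, and the rescaling factors ran only from 0.983 to 0.992. The count of 63 was therefore largely fixed in advance and says little about robustness. The log2 value of HMOX1 ran from 1.14 to 1.26. The median of the 9 ran from 0.04 to 0.07. The number of the 9 higher past 1.2-fold moved from 0 to 1 with a pseudocount of 0.1 or 0.5, where SRXN1 passed, and to 2 at 1.1-fold; the number lower stayed at 0. With a 99% interval, 1 of the 9 in place of 2 had an interval above 1. A pseudocount of 5, which shrinks low genes by construction, took the share of all genes past 1.2-fold to 5.32% higher and 1.76% lower. List medians ran from 0.05 to 0.08 for regulators and partners, from 0.08 to 0.10 for other NRF2 targets and from 0.02 to 0.04 for thioredoxin and peroxiredoxin genes, and those of glutathione supply (-0.03 to 0.00) and glutathione-using enzymes (-0.02 to 0.01) lay on both sides of 0. Rescaled counts of intervals in the other NRF2 targets, and of the 9 genes under equal totals, were chosen after seeing the data. Depth leaves the ratios of the 9 at least as uncertain as their intervals, the widest that of SRXN1. The spread between cultures adds to this and was not measured.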
